A study of Mus musculus with 2 samples.

Results

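The miR-17-92 cluster and its paralogs, miR-106a-363 and miR-106b-25, are groups of small RNAs cut from shared primary transcripts. The 10 mature miRNAs described here were chosen by accession: 6 that the miR-17-92 cluster makes, miR-106a-5p from miR-106a-363, and all 3 main arms of miR-106b-25. They are 10 of the 739 rows of the array, and all 10 were listed in both tissues, as were 353 rows in all. RNA came from CD4+ T cells, the helper lineage, of lamina propria (the tissue layer beneath the gut lining) and of spleen, with 1 array for each. Both groups were C57BL/6 female mice with the genotype IL-10 +/-, aged 10 weeks, so animals with both copies of the interleukin 10 gene were not compared. CD4+ T cells were isolated with the magnetic MACS system, the lamina propria preparation was digested with collagenase, and the RNA carried the dye Hy5. Collagenase is named for the lamina propria alone, so tissue and digestion cannot be told apart. How many animals were pooled for an array is not stated in the labels.

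A miRNA guides a silencing complex to messenger RNAs that pair with its seed, bases 2 to 8 from its 5′ end. The miR-17-92 cluster is switched on by MYC and E2F factors and is known in mouse lymphocytes for favouring proliferation and survival, in part by restraining the death factor Bcl2l11 (Bim). In mouse CD4+ T cells it is known to support clonal expansion after antigen and the follicular helper programme. The miR-106b-25 cluster lies within Mcm7, a DNA replication gene, and miR-106a-363 is best known from mouse T cell lymphomas in which it is overexpressed.

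The mature sequences are shown because they sort the 10 miRNAs into 4 seed groups that the choice by accession did not use. All 10 names matched RefSeq entries on GRCm38.p6, and capitals mark the seed.
miR-17-5p: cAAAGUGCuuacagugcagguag
miR-20a-5p: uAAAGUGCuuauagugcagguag
miR-106a-5p: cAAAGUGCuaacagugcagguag
miR-106b-5p: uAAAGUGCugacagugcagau
miR-93-5p: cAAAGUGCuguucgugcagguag
miR-18a-5p: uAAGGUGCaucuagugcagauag
miR-19a-3p: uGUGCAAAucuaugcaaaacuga
miR-19b-3p: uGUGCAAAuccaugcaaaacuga
miR-92a-3p: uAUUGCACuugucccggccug
miR-25-3p: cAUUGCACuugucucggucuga
The first 5 share the miR-17 seed, miR-18a-5p has its own, miR-19a-3p and miR-19b-3p share another, and miR-92a-3p and miR-25-3p share the last. Among 1679 mature sequences in the RefSeq table, 7 carry the miR-17 seed, 2 the miR-18a seed, 2 the miR-19 seed and 6 the miR-92a seed. The miR-19 seed thus occurs in that table in miR-19a-3p and miR-19b-3p alone. Counting bases from 1 at the 5′ end, miR-19a-3p and miR-19b-3p differ at a single base (U11C), as do miR-17-5p and miR-106a-5p (U10A). The sequences of the array's probes are not used here, so whether a probe also bound a near-identical partner was not tested.

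The genes lie on 3 chromosomes. On the plus strand of chromosome 14, in order, are miR-17-5p (chr14:115043684-115043706), miR-18a-5p (chr14:115043867-115043889), miR-19a-3p (chr14:115044048-115044070), miR-20a-5p (chr14:115044183-115044205), miR-19b-3p (chr14:115044358-115044380) and miR-92a-3p (chr14:115044476-115044496), with hairpins that span 836 bases. Of these, the annotated span of the noncoding host gene Mir17hg (chr14:115044390-115046728) takes in the whole of the miR-92a-1 hairpin only. On the minus strand of chromosome X are miR-106a-5p (chrX:52742541-52742563) and second copies of miR-19b-3p (chrX:52741991-52742013) and miR-92a-3p (chrX:52741854-52741874). A row for miR-19b-3p or miR-92a-3p therefore cannot tell the chromosome 14 copy from the X copy. On the minus strand of chromosome 5, inside the span of Mcm7, are miR-106b-5p (chr5:138165787-138165807), miR-93-5p (chr5:138165574-138165596) and miR-25-3p (chr5:138165332-138165353). A further 16 mature arms of these clusters, among them miR-20b-5p, miR-18b-5p and miR-363-3p, are in the RefSeq table but could not be tied to a row, because neither the array table nor the reference pairs accessions with names.

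All 10 miRNAs were lower in CD4+ T cells of lamina propria than in those of spleen, each by 2-fold or more, and 0 were higher. Of all 353 shared rows, 25.8% were lower by that much and 16.1% higher. These shares leave out rows listed on a single array, and more rows were listed in spleen (516) than in lamina propria (378). The ratios ran from 2.95-fold lower for miR-93-5p to 6.12-fold lower for miR-19b-3p, and 6 of the 10 were at least 4-fold lower. Their median log2 ratio of lamina propria over spleen was -2.06 (4.17-fold lower), against 0.0093 over all shared rows. With 1 array a tissue there is no replicate error and no test, so each value stands for its array only. The deposited numbers are linear intensities in arbitrary units, and how background and scale were treated is not stated in the labels. In such bulk RNA, fewer cells with a miRNA and less of it per cell cannot be told apart.

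**Figure D1:**
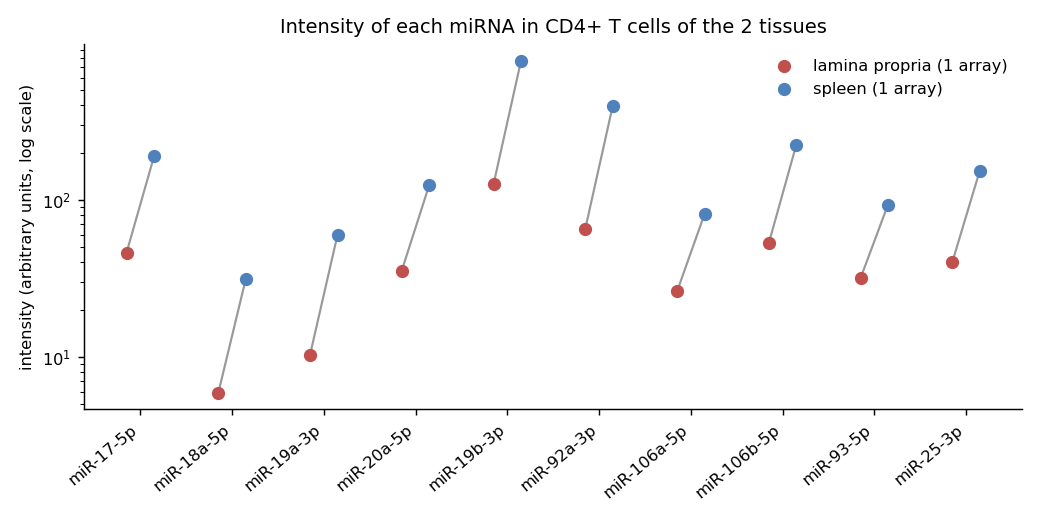
Deposited intensity (arbitrary units, log axis) of each of the 10 miRNAs, with the lamina propria array on the left of each pair and the spleen array on the right; each point is 1 array. Every pair slopes the same way, from 5.91 against 31.44 for miR-18a-5p to 125.74 against 768.92 for miR-19b-3p.

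The miR-19 pair and miR-92a-3p had the lowest ratios of the 10 on the deposited scale. The 3 scalings that add 1 constant to every ratio cannot change that order. Of the settings that could change it, these miRNAs stayed the lowest 3 only with 1 added to both values. miR-18a-5p was the lowest, and miR-92a-3p not among the lowest 3, when arrays were quantile normalized or the trend of ratio with level was subtracted, and miR-106b-5p took the place of miR-19a-3p with 10 added to both values. miR-19b-3p (MIMAT0000513), which with miR-19a-3p is known in mouse lymphoma as a main oncogenic part of the cluster, had an intensity of 125.74 in lamina propria and 768.92 in spleen, a log2 ratio of -2.61. miR-19a-3p (MIMAT0000651), which only the chromosome 14 cluster makes, had 10.33 in lamina propria and 60.03 in spleen, a log2 ratio of -2.54 (5.81-fold lower). The ratios of these near-identical miRNAs were 0.07 log2 units apart. miR-92a-3p (MIMAT0000539), known in mouse endothelium as a brake on vessel growth, had 65.42 in lamina propria and 398.20 in spleen, a log2 ratio of -2.61 (6.09-fold lower). Among the 353 shared rows, miR-19b-3p, miR-92a-3p and miR-19a-3p held places 10, 11 and 13 from the lowest ratio.

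miR-18a-5p (MIMAT0000528), whose seed differs from that of miR-17-5p, lay close to the lower end of the listed values in lamina propria. It had 5.91 in lamina propria and 31.44 in spleen, a log2 ratio of -2.41 (5.32-fold lower). Its lamina propria value was 2.05 times the array's minimum of 2.88, and 161 of the 378 rows listed there were dimmer. Its place among the 10 moved with the setting more than its direction did. With 10 added to both values its log2 ratio was -1.38, while that of miR-19b-3p was -2.52. It was -2.28 after quantile normalization and -1.97 after trend removal, where miR-19b-3p was at -2.03 and -1.87.

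The 5 miRNAs with the miR-17 seed, a group known for holding back brakes on the cell cycle and on survival, were 2.95-fold to 4.24-fold lower in lamina propria. miR-106b-5p (MIMAT0000386), known in human cells to target the cell cycle inhibitor CDKN1A, had 52.89 in lamina propria and 224.03 in spleen, a log2 ratio of -2.08. miR-17-5p (MIMAT0000649) had 46.14 in lamina propria and 189.53 in spleen, a log2 ratio of -2.04. Its closest relative in the cluster, miR-20a-5p (MIMAT0000529), had 35.50 in lamina propria and 124.68 in spleen, a log2 ratio of -1.81. The remaining pair of this group had the mildest ratios of all 10 on the deposited scale, and miR-106a-5p lost that place after quantile normalization, at -1.16 against -0.89 for miR-25-3p. miR-106a-5p (MIMAT0000385), from chromosome X, had 26.13 in lamina propria and 81.24 in spleen, a log2 ratio of -1.64. miR-93-5p (MIMAT0000540), which shares its primary transcript with miR-106b-5p, had 31.70 in lamina propria and 93.36 in spleen, a log2 ratio of -1.56. The group's median was -1.81, and none of its 5 ratios reached that of miR-19a-3p or miR-19b-3p. That separation held on the deposited scale, which the 3 scalings that add 1 constant to every ratio cannot change. It also held after quantile normalization, after trend removal and with 1 added to both values. It was lost with 10 added, where miR-19a-3p was at -1.78 and miR-106b-5p at -1.90.

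miR-25-3p (MIMAT0000652), the last of the miR-106b-25 cluster, shares the seed of miR-92a-3p but not its ratio. It had 40.05 in lamina propria and 153.38 in spleen, a log2 ratio of -1.94 (3.83-fold lower). miR-92a-3p was thus 1.59-fold further below its spleen value than miR-25-3p was. This gap lay between 1.40-fold and 1.66-fold over the deposited scale and the 7 other settings. The 3 scalings that add 1 constant to every ratio could not change it.

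**Figure D2:**
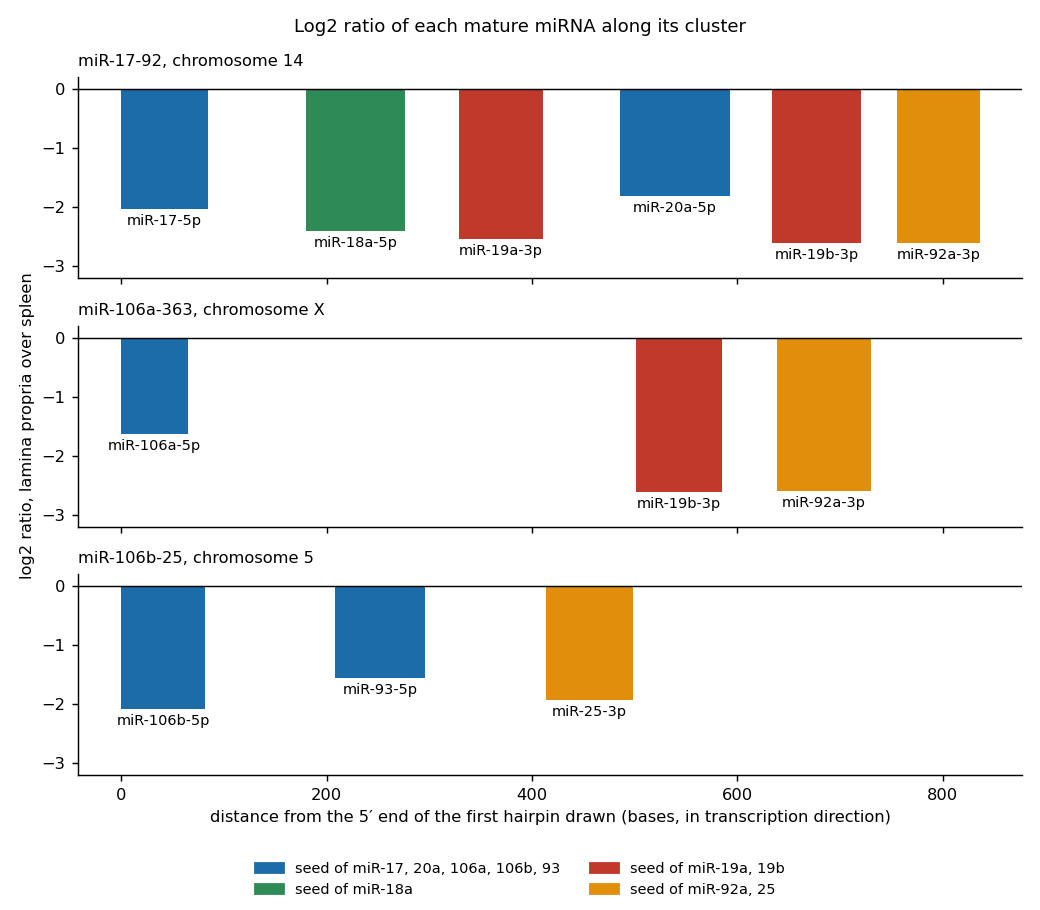
Log2 ratio of lamina propria over spleen (bars, 1 array a tissue) drawn at each hairpin's distance in bases from the first hairpin shown, in the direction of transcription; bar width is hairpin length and colour is the seed group. miR-19b-3p and miR-92a-3p have 1 row each and are drawn at both loci, and the other hairpins of the chromosome X cluster are not drawn. Bars reach -2.61 on chromosome 14 and -2.08 on chromosome 5.

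By cluster, the 6 miRNAs of miR-17-92, with miR-19b-3p and miR-92a-3p counted here although chromosome X also makes them, had a median log2 ratio of -2.48 (5.56-fold lower in lamina propria), and the 3 of miR-106b-25 had -1.94 (3.83-fold lower). The first median was the lower one on the deposited scale, which the 3 scalings that add 1 constant to every ratio cannot change. It was also the lower one after quantile normalization, after trend removal and with 1 or 10 added to both values. The single ratios of the 2 clusters overlapped. With 10 added to both values the medians came close, at -1.81 and -1.71. Within miR-17-92 the log2 ratios in transcript order were -2.04, -2.41, -2.54, -1.81, -2.61 and -2.61. They fell over the first 3, were highest at miR-20a-5p and were lowest at the last 2. Whether position plays a part was not tested, and chromosome X also makes the last 2. miR-17-5p and miR-20a-5p, which have miR-18a-5p and miR-19a-3p between them on the transcript, were 4.11-fold and 3.51-fold lower. The 4 others, miR-18a-5p, miR-19a-3p, miR-19b-3p and miR-92a-3p, were 5.32-fold to 6.12-fold lower. All 4 were below both miR-17-5p and miR-20a-5p on the deposited scale, which the 3 constant scalings cannot change. They were also below both after quantile normalization, after trend removal and with 1 added to both values, but not with 10 added. miR-17-5p and miR-20a-5p share a seed that the 4 others lack, but those 4 do not all share a seed. miR-18a-5p was 0.37 log2 units from miR-17-5p and 0.60 from miR-20a-5p, and the miR-17 seed group spanned 0.52. From the rest of that group it was 0.33 (miR-106b-5p), 0.77 (miR-106a-5p) and 0.85 (miR-93-5p) apart. Whether the ratio depends on the seed was not tested. The split is a description of 6 rows on 2 arrays, and no noise estimate for a single row is at hand.

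The gap in log2 ratio between miRNAs with the same seed ran from 0.04 to 0.67 over 12 pairs, with a median of 0.26. Over the 33 pairs with different seeds it ran from 0.01 to 1.05, with a median of 0.53, so the ranges overlapped. The miR-17 seed group alone gave 10 of the 12 same-seed pairs, and the pair of miR-92a-3p and miR-25-3p had the widest gap of the 12. Pairs that share a seed also share much of the rest of their sequence, and the pairs reuse the same 10 rows. The GC content of the mature sequences ran from 34.8% in miR-19a-3p to 57.1% in miR-92a-3p, which both had low ratios. Across the 10 miRNAs the Spearman correlation of log2 ratio with GC content was 0.32 and with mean log2 level -0.41, given as descriptions of 10 rows from the same 2 arrays.

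**Figure D3:**
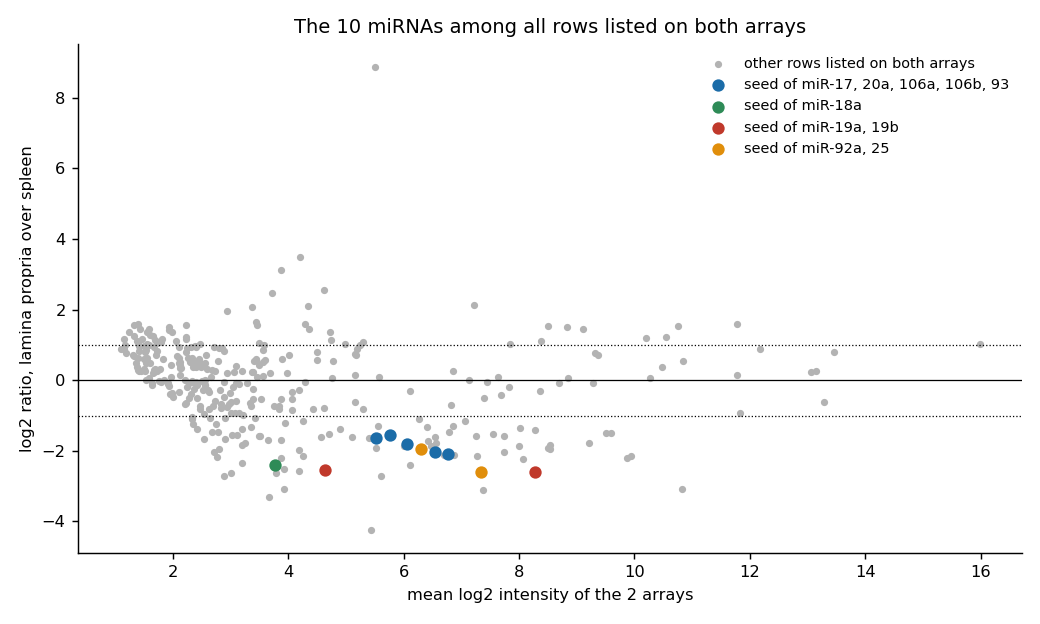
Log2 ratio of lamina propria over spleen against mean log2 intensity for the 353 rows listed on both arrays, with the 10 miRNAs coloured by seed group; dotted lines mark 2-fold. The 10 miRNAs lie between -2.61 and -1.56, below the lower dotted line. In their range of levels, 53% of rows with the 10 counted, and 47.8% of the 90 other rows, are 2-fold lower or more.

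The ratios stand against a background that was itself low at these levels. All 10 miRNAs were in the upper 50% of shared rows by mean log2 level, where 41.2% of 177 rows were lower in lamina propria by 2-fold or more and the median log2 ratio was -0.59. Of the 100 rows between the dimmest and the brightest of the 10, 53% were at least 2-fold lower, with a median of -1.18. These figures count the 10 miRNAs themselves. Among the other rows the shares were 37.7% of 167 in the upper 50% and 47.8% of 90 in this range. The medians of those other rows were -0.50 and -0.82. All 10 also belong to the early registry entries, whose low ratios as a set were known when this background was chosen. Of the 74 rows of the upper 50% with an accession number up to 652, the highest among the 10 miRNAs, 67.6% were lower by 2-fold or more, with a median of -1.51. Without the 10 miRNAs, 40 of the other 64 rows of that set (62.5%) were lower by as much, with a median of -1.36. The part of this wider difference in the ratios of the 10 miRNAs was not tested.

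Ratios like theirs were not confined to the 10 miRNAs. Of the 343 other shared rows, 42 had a log2 ratio between those of miR-19b-3p and miR-93-5p, 9 had a lower one and 292 a higher one. None of these rows could be named, so the 3 rows most like the 10 miRNAs are not given. The T cell identity of the samples, and markers of epithelial, stromal, myeloid and erythroid cells, could not be checked for the same reason.

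Summed over the 10 rows, intensity was 439.81 in lamina propria and 2125 in spleen, 4.83-fold lower in lamina propria. The 10 rows held 0.241% of the intensity of the 378 rows listed in lamina propria and 1.56% of that of the 516 rows listed in spleen, a share 6.47-fold lower. Over the 353 rows listed on both arrays the share was 0.241% in lamina propria and 1.57% in spleen, 6.49-fold lower. Such sums add the intensities of different probes. A single row held much of the signal on both arrays, and without it the shares were 0.486% in lamina propria and 2.34% in spleen, 4.82-fold lower.

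The size of the difference depended on the scaling, and its direction did not in the settings run. Setting medians, 75th percentiles or trimmed totals equal moved every log2 ratio up by 0.28 to 0.43, and all 10 miRNAs were still at least 2-fold lower in lamina propria. Under these 3 scalings the median of all shared rows moved by the same amount, so the 10 miRNAs' median stayed 2.07 log2 units below it. Quantile normalization and removal of the trend with level, which shift bright and dim rows by different amounts, left the 10 miRNAs' median 1.12 and 0.98 log2 units below that of all shared rows. After quantile normalization 6 of the 10 were at least 2-fold lower, against 19% of all shared rows. After removal of the trend 6 were, against 17%. The share among other rows at the levels of the 10 miRNAs, 47.8% as deposited, was not computed for either setting. miR-18a-5p, miR-19a-3p, miR-19b-3p, miR-92a-3p and miR-17-5p were past 2-fold under both.

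**Figure D4:**
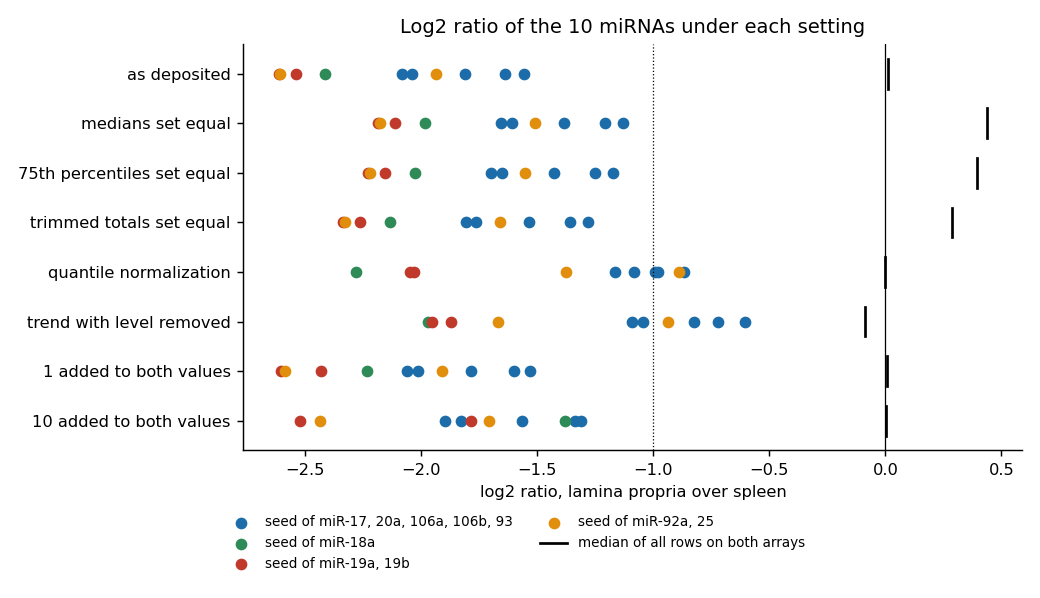
Log2 ratio of lamina propria over spleen for each of the 10 miRNAs (points, coloured by seed group) on the deposited scale and under the 7 other settings; the black tick is the median of all 353 shared rows in that setting and the dotted line marks 2-fold lower. All points lie below 0, and miR-93-5p is the highest of the 10 in all 8 settings.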

How the data were processed

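Total RNA of CD4+ T cells was labelled with Hy5 for miRCURY LNA arrays, per the labels' protocols, with 1 array a tissue. The deposited table holds linear intensity values per row, and blanks where no value is given. No label or header states the scanner settings, background correction, detection rule or scaling, and the number of arrays limits the precision. Rows were tied to miRNA names by the accessions with which the 10 members were chosen; sequences and positions came from RefSeq tables on GRCm38.p6. The members and lists were chosen with earlier results of these data known. For the 353 rows listed on both arrays, log2 ratios of lamina propria over spleen were taken with no pseudocount, and 2-fold was the threshold. Rows named in the text are all 10 members; the rule for named rows also asked for other cluster arms, other miRNAs with the same seeds and the 3 rows with the most similar ratio, none of which could be named. Alternatives were 3 single-factor scalings (medians, 75th percentiles, totals without the 10 brightest rows of each array), quantile normalization, subtraction of a lowess fit of ratio on level (fraction 0.5; "removal of the trend"), 1 or 10 added, thresholds of 1.5-fold and 4-fold, the upper 50% by level, and one lowest value for both arrays. Backgrounds by level range and by accession number were added after the data were seen. The counting was tested on simulated data. Python 3.11.15, numpy 2.4.6, pandas 2.3.3, scipy 1.17.1 and statsmodels 0.14.6 were used.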

Additional observations from a re-analysis of the deposited data

How the results depend on the processing

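The 10 miRNAs' median log2 ratio, -2.06 as deposited, became -1.63 when medians were set equal, -1.67 for 75th percentiles and -1.78 for trimmed totals, which follows from 1 constant added to every ratio. It was -1.12 after quantile normalization, -1.07 after trend removal and -1.75 with 10 added to both values. It moved by less than 0.1 with 1 added. The upper 50% by level and one lowest value for both arrays kept all 10 miRNAs, so neither could move it or the counts. The number at least 2-fold lower in lamina propria, 10 as deposited, was 6 after quantile normalization (miR-20a-5p, miR-106b-5p, miR-93-5p and miR-25-3p lay at -0.98 to -0.87) and 6 after trend removal (miR-20a-5p, miR-106a-5p, miR-93-5p and miR-25-3p lay at -0.94 to -0.60). Both methods take part of a shift shared by rows of similar level out of the ratios by construction. At 4-fold the number was 6, and at 1.5-fold 10, both set by the same ratios. It was 10 with the 3 single-factor scalings and with 1 or 10 added. The number at least 2-fold higher was 0 throughout. Of 70 single ratios under the 7 alternatives, all were below 0 and 62 were at least 2-fold lower. No paired analysis was possible because there is a single array for lamina propria and a single one for spleen, which also leaves nothing to drop in turn. Signal over background is unknown; with 10 added, miR-18a-5p moved to -1.38 and miR-19a-3p to -1.78, from -2.41 and -2.54 as deposited.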
